A study of Mus musculus with 13 samples.

Results

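The 10 genes described here are markers of the osteoclast, the multinucleated cell that resorbs bone: Dcstamp, Ocstamp, Tnfrsf11a, Oscar, Siglec15, Itgb3, Acp5, Ctsk, Mmp9 and Ckb. They are 10 of the 55357 genes in the count table and were found by matching Ensembl identifiers to mouse symbols. The genes were chosen by their measured fold changes between the groups, so that difference is described below and not tested. The osteoblast genes Sp7 and Ibsp were set beside them as a measure of how much bone tissue RNA each library held.

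The tissue was mouse tail with lymphedema, in which lymph fails to drain and the tissue swells, and its total RNA was sequenced. All 13 libraries came from day 28 after TNT and from an age of 12 weeks. TNTSham, the sham condition, had 7 of them, and TNTProx1, a condition whose label carries the name of a lymphatic endothelial transcription factor, had 6. TNT most likely stands for tissue nanotransfection, delivery of nucleic acids into skin by a brief electric field. The strain, the sex of the animals, the construct, the part of the tail taken and whether each library is a separate animal: none of these is given in the sources used here.

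Osteoclasts form when precursors of the monocyte and macrophage lineage, kept alive by CSF1, receive RANKL through its receptor RANK and fuse with each other. The fused cell attaches to bone through the integrin αvβ3, seals off the surface beneath it, acidifies that space with a proton pump and releases enzymes that digest bone collagen. The transcription factors NFATc1, PU.1, AP-1 and the E-box binding factor MITF act together in this program. Vertebrae run through the tail, and osteoclasts lie on their bone surfaces next to osteoblasts.

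Libraries held 29.7M to 47.9M counts (M, mega) in TNTSham and 35.0M or more in TNTProx1. TNTProx1 4 to 6 stood apart from the other 10 libraries: genes of the TEC class, provisional gene models, took 0.136 to 0.193% of their counts against 0.378 to 0.745%. Levels are given in CPM, the count divided by the library total after TMM scaling. Malat1, a nuclear RNA, had 3410 to 3539 CPM in these libraries and 8979 to 16814 CPM in the other 10. Values without them are given as those of 10 libraries. TNTSham 1 differed from the other libraries in its sex-linked transcripts. The summed level of 4 keratins of the epidermis was 24057 to 38097 CPM in TNTSham and 5087 to 52577 CPM in TNTProx1, so skin was present in every library. Levels of Sp7 and Ibsp, given below, show that RNA of bone-forming cells was present as well.

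The RefSeq promoter table (build GRCm38.p6) had 7 start sites for 5 of the 10 genes. The others, Mmp9, Dcstamp, Ocstamp, Itgb3 and Siglec15, are named only. The 250 bases before the start are printed for 3 genes from different roles in the list that match different ones of the short motifs below. Ctsk lies at chr3:95498960-95499209 on the plus strand, Oscar at chr7:3616158-3616407 on the minus strand, and the third start site of Acp5 at chr9:22130599-22130848 on the minus strand. Capitals mark matches on either strand to the NFAT core GGAAA, the PU.1 core GAGGAA, the AP-1 motif TGANTCA and the E-box CANGTG.
Ctsk: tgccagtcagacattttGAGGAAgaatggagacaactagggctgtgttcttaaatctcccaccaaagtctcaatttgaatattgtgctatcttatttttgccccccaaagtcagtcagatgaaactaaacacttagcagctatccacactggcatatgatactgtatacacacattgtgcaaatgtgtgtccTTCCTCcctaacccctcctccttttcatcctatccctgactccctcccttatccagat
Oscar: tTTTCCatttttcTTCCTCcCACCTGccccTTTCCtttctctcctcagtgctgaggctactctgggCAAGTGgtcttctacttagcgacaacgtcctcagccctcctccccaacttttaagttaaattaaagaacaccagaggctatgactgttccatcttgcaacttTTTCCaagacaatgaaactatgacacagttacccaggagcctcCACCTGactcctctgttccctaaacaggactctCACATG
Acp5: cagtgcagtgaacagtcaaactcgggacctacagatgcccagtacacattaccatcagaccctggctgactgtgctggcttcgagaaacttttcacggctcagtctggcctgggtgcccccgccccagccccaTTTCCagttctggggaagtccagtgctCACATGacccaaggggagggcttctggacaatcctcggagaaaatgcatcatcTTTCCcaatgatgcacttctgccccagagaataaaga

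The Ctsk window held 2 matches to GAGGAA and none to the other motifs. The Oscar window held 3 matches to GGAAA, 1 to GAGGAA and 4 to CANGTG. The printed Acp5 window held 2 matches to GGAAA and 1 to CANGTG, and the remaining 2 Acp5 windows each held 1 match to GGAAA and at least 1 to CANGTG. The Tnfrsf11a window held 2 matches to CANGTG alone and the Ckb window 1 match to GGAAA alone. None of the 7 windows held TGANTCA. Of all 32851 windows of this length in the table, 55.6% held GGAAA, 23.3% held GAGGAA, 6.75% held TGANTCA and 39.5% held CANGTG, so each of these short motifs except TGANTCA is common. A match describes the letters in the window and not a bound site, and CANGTG is a general E-box pattern that does not single out MITF.

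In TNTProx1 against TNTSham, all 10 osteoclast genes stood higher, with a median log2 fold change of 1.22. The largest was that of Ckb, 2.98-fold, and the smallest that of Tnfrsf11a, 1.22-fold. None of the 10 had an adjusted p below 0.05 (edgeR quasi-likelihood F test with Benjamini-Hochberg adjustment over all 22876 genes tested), and neither did any other gene (0%). At an unadjusted p below 0.05 all 10 were higher, beside 8.33% of all tested genes. A log2 fold change above 0 was found for 47.7% of tested genes, whose median was -0.02. Since the genes were chosen for this difference, nothing is read from these counts. The smallest adjusted p, 0.0848, was shared by Acp5, Ctsk and Ckb (edgeR). With 10 libraries, 9 of the 10 had an unadjusted p below 0.05, beside 9.34% of all genes, and all 10 were above 0, beside 49.8%. Without TNTProx1 1, edgeR called Dcstamp, Acp5, Ctsk, Mmp9 and Ckb, beside 2.55% of all genes called and 2.07% called higher, and without TNTSham 5 it called Itgb3 and Ctsk, beside 0.137%. The Wald test of DESeq2 called those 5 genes and Itgb3 with all 13 libraries, beside 2.64% called higher of the 17106 genes it gave an adjusted p. Siglec15 was given no adjusted p in that test. In bulk tissue, more cells of a type and more RNA per cell cannot be told apart.

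**Figure D1:**
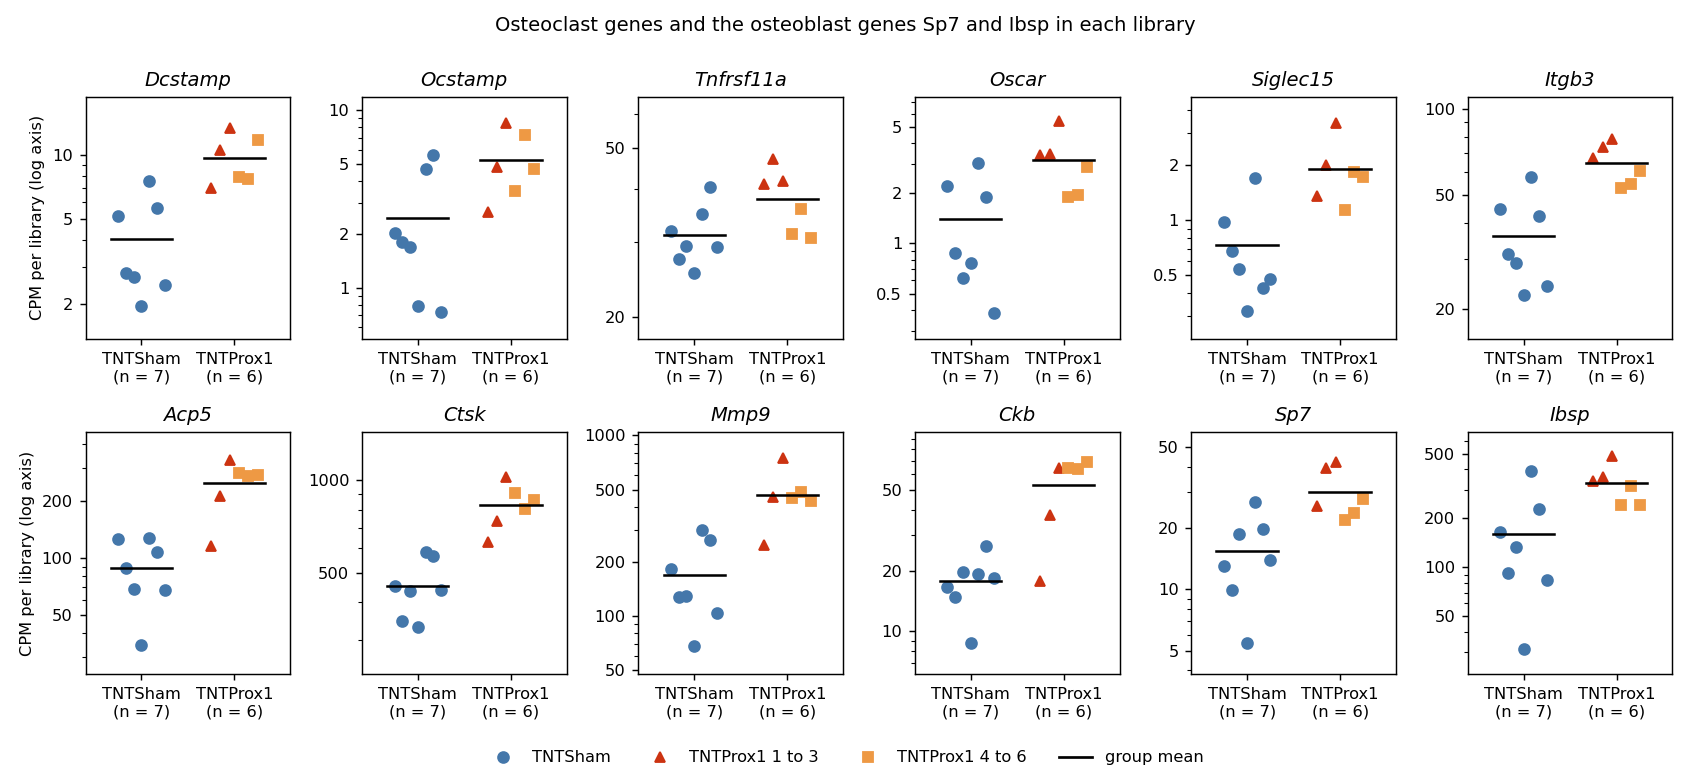
CPM of the 10 osteoclast genes and of the osteoblast genes Sp7 and Ibsp in each of 13 libraries, on a log axis with its own range in each panel. Points are libraries, with triangles for TNTProx1 1 to 3 and squares for TNTProx1 4 to 6, and black lines are group means. Ctsk is the gene whose groups do not overlap (583 CPM at most in TNTSham, 631 CPM at least in TNTProx1).

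Dcstamp and Ocstamp encode membrane proteins that osteoclast precursors need for fusion. Dcstamp (ENSMUSG00000022303.10) had a lowest, median and highest level of 1.96, 2.79 and 7.55 CPM in TNTSham and of 7.02, 9.21 and 13.4 CPM in TNTProx1. The groups overlapped only through TNTProx1 1, which lay below TNTSham 5. The log2 fold change was 1.27 ± 0.31 (SE), and 1.36 ± 0.37 with 10 libraries. Ocstamp (ENSMUSG00000027670.5) was scarcer, at 0.732, 1.81 and 5.57 CPM in TNTSham and 2.67, 4.73 and 8.52 CPM in TNTProx1. Its raw counts ran from 23 to 301, and only TNTProx1 3 and TNTProx1 5 lay above the TNTSham range. The log2 fold change was 1.09 ± 0.46 (SE).

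The receptors of the list differed more among themselves. Tnfrsf11a (ENSMUSG00000026321.9), which encodes RANK, stood at 25.4, 29.4 and 40.5 CPM (lowest, median, highest) in TNTSham and at 30.8, 38.6 and 47.2 CPM in TNTProx1. TNTProx1 1 to 3 lay above every TNTSham library, at 41.2 to 47.2 CPM, and TNTProx1 4 to 6 lay within the TNTSham range. The log2 fold change was 0.28 ± 0.13 (SE) with 13 libraries and 0.47 ± 0.13 with 10. RANK is also made by cell types other than osteoclasts.

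Oscar (ENSMUSG00000054594.14), a collagen receptor that signals with the Fc receptor gamma chain, stood at 0.382, 0.879 and 3.05 CPM in TNTSham and at 1.89, 3.14 and 5.42 CPM in TNTProx1. As with Tnfrsf11a, TNTProx1 1 to 3 lay above the TNTSham range, the lowest at 3.39 CPM, and TNTProx1 4 to 6 within it. Siglec15 (ENSMUSG00000091055.3), a sialic acid receptor that pairs with the adaptor DAP12, was the least abundant of the 10, at 0.321, 0.541 and 1.70 CPM in TNTSham and 1.13, 1.77 and 3.37 CPM in TNTProx1. Raw counts were 12 to 185 for Oscar and 11 to 115 for Siglec15, so these genes carry the widest counting error of the list. Their log2 fold changes were 1.17 ± 0.44 and 1.36 ± 0.40 (SE).

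Itgb3 (ENSMUSG00000020689.5) encodes the β3 chain of the integrin αvβ3 and, in platelets, of the fibrinogen receptor. It stood at 22.5, 31.2 and 57.7 CPM in TNTSham and at 53.0, 64.1 and 78.8 CPM in TNTProx1, with TNTProx1 4 and TNTProx1 5 below TNTSham 5. The log2 fold change was 0.85 ± 0.20 (SE). Platelet genes, summed over 7, stood at 40.2 to 57.4 CPM in TNTSham and 41.0 to 68.4 CPM in TNTProx1, with TNTProx1 4 to 6 above every TNTSham library at 64.4 CPM or more. Of the 4 tested, 3 were higher at a median of 0.17. Pf4, platelet factor 4, had a log2 fold change of 0.60 ± 0.18 and Ppbp of 0.30 ± 0.35, and the platelet receptor gene Gp9 had at most 4 counts in any library and 0 in 8. The part of platelets in the difference of Itgb3 was not tested.

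The enzymes of resorption were the most abundant. Ctsk (ENSMUSG00000028111.5), the collagen-digesting protease cathepsin K, stood at 332, 440 and 583 CPM in TNTSham and at 631, 834 and 1027 CPM in TNTProx1. It was the 1 gene of the 10 for which every TNTProx1 library lay above every TNTSham library, beside 0.398% of all tested genes. The log2 fold change was 0.88 ± 0.15 (SE), the most precise of the list after that of Tnfrsf11a. With TNTProx1 1 to 3 alone, 4 of the 10 genes lay wholly above TNTSham (Tnfrsf11a, Oscar, Itgb3 and Ctsk), beside 3.45% of all genes.

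Acp5 (ENSMUSG00000001348.16), the tartrate-resistant acid phosphatase by which osteoclasts are stained, stood at 34.6, 88.4 and 128 CPM in TNTSham and at 116, 272 and 330 CPM in TNTProx1. TNTProx1 1 lay within the TNTSham range and the other 5 at 213 CPM or more. Mmp9 (ENSMUSG00000017737.3), a gelatinase also stored by neutrophils, stood at 67.7, 129 and 298 CPM in TNTSham and at 248, 454 and 746 CPM in TNTProx1. Again only TNTProx1 1 overlapped. The log2 fold changes were 1.48 ± 0.28 for Acp5 and 1.49 ± 0.32 for Mmp9 (SE).

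Ckb (ENSMUSG00000001270.10) encodes the brain-type creatine kinase, which buffers ATP and is abundant in osteoclasts. It stood at 8.76, 18.4 and 26.6 CPM in TNTSham and at 17.8, 63.9 and 69.2 CPM in TNTProx1. TNTProx1 1 sat inside the TNTSham range at 17.8 CPM and TNTProx1 2 at 37.5 CPM, while TNTProx1 3 to 6 were close together at 63.5 to 69.2 CPM. The log2 fold change was 1.58 ± 0.29 (SE) with all libraries and 1.17 ± 0.33 with 10.

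Per kilobase of exon, which allows genes to be compared, Ctsk was highest in every library, at 298 ± 64.1 CPM per kb in TNTSham (SD, n = 7) and 548 ± 91.1 CPM per kb in TNTProx1 (SD, n = 6). Mmp9 (47.3 ± 24.2 in TNTSham) and Acp5 (43.7 ± 16.9) followed, and Mmp9 was the higher in 8 of 13 libraries, so their order was not fixed. Ckb, Itgb3 and Tnfrsf11a came next at 6.12 ± 1.87, 6.09 ± 2.17 and 5.23 ± 0.854 CPM per kb in TNTSham, within each other's spread. Dcstamp stood at 1.52 ± 0.788 CPM per kb there, below Tnfrsf11a in all 13 libraries. Oscar, Ocstamp and Siglec15 were lowest at 0.759 ± 0.539, 0.674 ± 0.518 and 0.633 ± 0.412, and these did not differ beyond their spread. Library by library, Ocstamp was above Siglec15 in 2 of 13, so the order of these 2 means did not hold in most libraries.

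The bone genes moved with the osteoclast genes between the groups. Sp7, a transcription factor of osteoblasts, stood at 5.46, 14.0 and 26.8 CPM in TNTSham (lowest, median, highest) and at 21.9, 26.7 and 42.3 CPM in TNTProx1. Ibsp, the matrix protein bone sialoprotein, stood at 31.4, 133 and 391 CPM in TNTSham and at 241, 328 and 485 CPM in TNTProx1. Both were lowest in TNTSham 4 and highest in TNTProx1 3, and both overlapped between the groups through TNTSham 5. Their log2 fold changes were 0.97 ± 0.29 and 1.04 ± 0.42 (SE). A bone score, the mean log2(CPM + 0.5) of Sp7 and Ibsp, averaged 5.41 ± 0.923 (SD) over the 7 TNTSham libraries and 6.61 ± 0.362 over the 6 of TNTProx1. The difference of 1.20 is given as a description, since Sp7 was known to differ when it was named.

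The groups' difference plays no part in the variation among the 7 TNTSham libraries, and there the osteoclast genes were higher where the bone score was higher. That Mmp9 and Sp7 were both lowest in TNTSham 4 was known when the genes and the relation were chosen, so this variation was used in part. The p-values of relations to the bone score are therefore given as a description. The mean of the 10 genes, each scaled over the 13 libraries, had a Pearson r of 0.92 with the bone score over the 7 TNTSham libraries (exact permutation p = 0.00298, two-sided; adjusted p = 0.0327 over 33 relations). Spearman's rho was 0.93 (exact permutation p = 0.00675, adjusted p = 0.0742). TNTSham 4 was lowest in both measures (bone score 3.79, osteoclast mean -1.59) and TNTSham 5 highest (6.69 and 0.28). Without these 2, the farthest from the median bone score, r was 0.80 over 5 libraries. Genes of 1 library also share its depth and scaling factor.

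Each of the 10 genes had a positive r with the bone score within TNTSham, from 0.66 for Oscar to 0.94 for Mmp9, with a median of 0.85. Over all 22874 tested genes other than Sp7 and Ibsp, the median r was -0.03, and 47.2% had an r above 0. Of the 10 genes, 8 had an exact permutation p below 0.05, beside 1.68% of all genes with a positive r. Adjusted over the 33 relations, the exact permutation p was below 0.05 for Ctsk (r = 0.92) and Mmp9, at 0.0295 for both. Since Mmp9 and Sp7 were chosen with part of this variation known, these p-values describe it and are no independent test. Adjusted over all genes, none passed (0%), and the smallest exact permutation p among the 10 was then 0.882. By Spearman's rho 5 of the 10 had an exact permutation p below 0.05 (Dcstamp, Tnfrsf11a, Ctsk, Mmp9 and Ckb), and the smallest adjusted over the 33 relations was 0.0742. The share of all genes was not computed for rho, so nothing is read from this count. Without TNTSham 4 and TNTSham 5 the r of Ctsk was 0.89, of Tnfrsf11a 0.88, of Ckb 0.86 and of Mmp9 0.83. For Siglec15 it was -0.26 and for Acp5 0.40, so these relations rest on the 2 libraries left out. Ocstamp and Oscar were lowest in TNTSham 7 and not in TNTSham 4. Among the 10 genes themselves, the 45 pairs had r from 0.24 (Siglec15 and Ckb) to 0.98 (Dcstamp and Itgb3) over the same 7 libraries, with a median of 0.80.

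**Figure D2:**
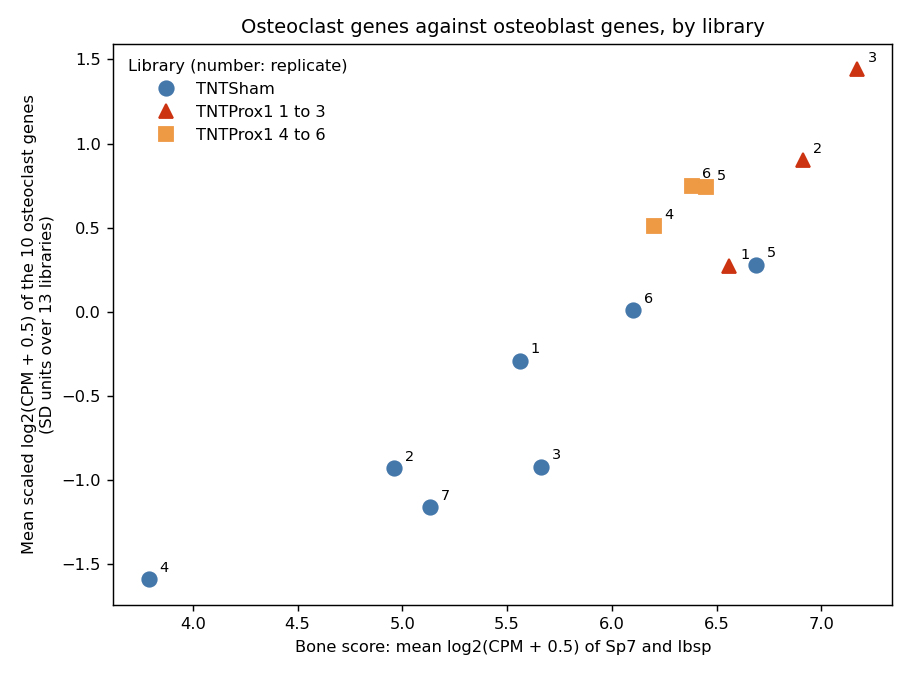
Mean scaled level of the 10 osteoclast genes (vertical axis, SD units over 13 libraries) against the bone score, the mean log2(CPM + 0.5) of Sp7 and Ibsp (horizontal axis). Each point is a library, numbered by replicate. TNTSham libraries run from 3.79 and -1.59 (TNTSham 4) to 6.69 and 0.28 (TNTSham 5), next to TNTProx1 1 at 6.56 and 0.27.

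The same genes were set against other cell types within TNTSham. With a macrophage score, the mean log2(CPM + 0.5) of 11 genes, the osteoclast mean had r = 0.13 within TNTSham (exact permutation p = 0.825, adjusted p = 0.922), and single genes lay between -0.10 and 0.27. TNTSham 1 stood far above the rest in this score, and without TNTSham 1 and TNTSham 2, the farthest from its median, r was -0.54 for the mean and -0.78 to 0.11 for single genes. With a neutrophil score over 10 genes, the osteoclast mean had r = 0.48 and the single genes 0.00 to 0.71 (0.17 to 0.66 without its 2 farthest libraries). The highest of these was that of Oscar, and for Mmp9, which neutrophils also carry, r was 0.41 (exact permutation p = 0.369). None of these relations to macrophage or neutrophil scores had a Pearson exact permutation p below 0.05. By Spearman's rho, Oscar, Ocstamp, Itgb3 and Acp5 had exact permutation p of 0.0123, 0.0238, 0.048 and 0.048 with the neutrophil score, and adjusted p of 0.0812 or more. The share of all genes was not computed for these relations either. Whether the correlation with the bone score is larger than these was not tested.

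**Figure D3:**
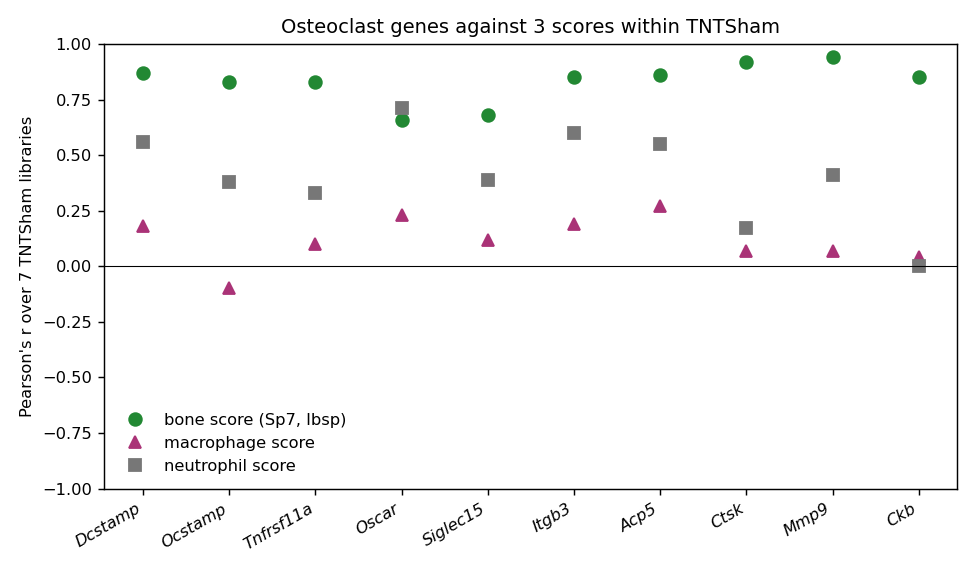
Pearson's r of each osteoclast gene (horizontal axis) with 3 scores over the 7 TNTSham libraries. Circles for the bone score lie between 0.66 and 0.94, triangles for the macrophage score between -0.10 and 0.27, and squares for the neutrophil score between 0.00 and 0.71.

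Within TNTProx1 alone no correlation was computed, because TNTProx1 1 to 3 and TNTProx1 4 to 6 form separate sets. TNTProx1 1 had the lowest osteoclast mean of its group, 0.27 at a bone score of 6.56, close to TNTSham 5 (0.28 at 6.69). TNTProx1 2 and 3 stood at 0.90 and 1.44 with bone scores of 6.91 and 7.17, so within this set of 3 libraries the order was the same in both measures. TNTProx1 4 to 6 had bone scores of 6.20 to 6.45, below that of TNTSham 5, and osteoclast means of 0.51 to 0.75, above it. The gap was widest for Ckb, at 63.5 to 69.2 CPM in these 3 libraries against 19.3 CPM in TNTSham 5. Acp5 stood at 271 to 280 CPM in them against 128 CPM in TNTSham 5. Mmp9 stood at 434 to 483 CPM against 298 CPM, and Ctsk at 806 to 908 CPM against 583 CPM. The lowest Dcstamp value was 7.74 CPM, close to 7.55 CPM in TNTSham 5. Oscar and Tnfrsf11a showed no such gap: Oscar was 1.89 to 2.89 CPM against 3.05 CPM and Tnfrsf11a 30.8 to 35.9 CPM against 35.0 CPM. Nor did Itgb3 (53.0 to 60.9 CPM against 57.7 CPM), Ocstamp (3.51 to 7.28 against 4.66) and Siglec15 (1.13 to 1.82 against 1.70). The low TEC share and Malat1 level of these libraries move with this pattern, and their part in it was not tested.

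With the bone score in the model as a covariate, the median log2 fold change of the 10 genes was 0.53, against 1.22 without it, and 9 of 10 remained above 0, beside 49.5% of all genes. Tnfrsf11a and Ocstamp were near 0, at -0.01 ± 0.14 and 0.10 ± 0.41 (SE). Oscar and Itgb3 followed at 0.30 ± 0.46 and 0.32 ± 0.16. Siglec15, Dcstamp and Ctsk stood at 0.52 ± 0.42, 0.55 ± 0.26 and 0.56 ± 0.16. The values were highest for Mmp9, Acp5 and Ckb, at 0.70 ± 0.24, 0.91 ± 0.31 and 1.20 ± 0.37. At an unadjusted p below 0.05 there were 4 of the 10 (Acp5, Ctsk, Mmp9 and Ckb), beside 3.61% of all genes, and none had an adjusted p below 0.05 (edgeR, 0%).

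With the bone score in the model and TNTProx1 4 to 6 left out, the median was 0.36 and no gene of the 10 had an unadjusted p below 0.05. Ckb then stood at 0.33 ± 0.39 and Acp5 at 0.32 ± 0.36, so their higher values in the previous model rested on TNTProx1 4 to 6. Mmp9 and Ctsk were lower than in that model as well, at 0.38 ± 0.30 and 0.33 ± 0.18. Ocstamp changed sign to -0.34 ± 0.49, and 9 of 10 genes were above 0, beside 50.3% of all genes. The bone score differs between the groups and overlaps only in part, so a model with both terms separates them over few libraries. Using the other 10 genes of the osteoblast list as the covariate, an alternative chosen after seeing the data, gave a median of 0.67.

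**Figure D4:**
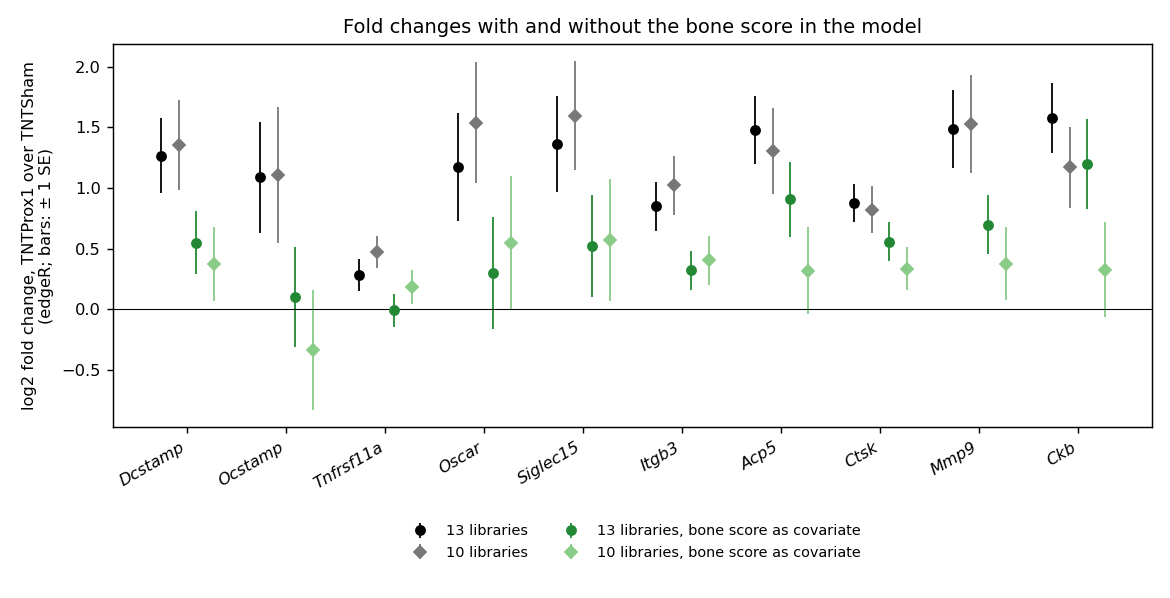
Log2 fold change (TNTProx1 over TNTSham, edgeR) of each osteoclast gene in 4 models, with bars of 1 SE: 13 and 10 libraries, each without and with the bone score as a covariate. With the covariate the values lie lower for every gene, and with 10 libraries and the covariate those of Acp5 and Ckb lie at 0.32 and 0.33.

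Other cell types were read from marker lists. Of 12 osteoblast and osteocyte genes all 12 were higher in TNTProx1 at a median of 0.52 (0.78 with 10 libraries), with a summed level of 170 to 883 CPM in TNTSham and 563 to 1106 CPM in TNTProx1. A log2 fold change above 0 was found for 47.7% of all genes. Over the 12 genes it ran from 0.01 to 1.04, the highest being that of Ibsp, and Sp7 had 0.97. The 2 genes of the bone score thus lay at the upper end of this list, and the bone score differs more between the groups than the list median. At an unadjusted p below 0.05 there were 5 of the 12 (edgeR), beside 8.33% of all genes. Of 6 cartilage genes 5 were higher at a median of 0.50, among them Col2a1 (0.78 ± 0.57) and Acan (0.32 ± 0.37). Sox9 had -0.14 ± 0.14. Of 11 macrophage genes 10 were higher at a median of 0.39, with a summed level of 1177 to 1945 CPM in TNTSham and 1317 to 2115 CPM in TNTProx1. Of these 11 genes, 6 were higher at an unadjusted p below 0.05 (edgeR). Adgre1, which encodes F4/80, had a log2 fold change of 0.29 ± 0.19, Cd68 0.39 ± 0.14 and C1qa 0.41 ± 0.18 (SE). With the macrophage score as covariate the median of the osteoclast genes was 1.27, and 7 of 10 had an unadjusted p below 0.05, beside 2.75% of all genes.

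Neutrophil genes summed to 40.8 to 292 CPM in TNTSham and 89.2 to 249 CPM in TNTProx1, and 5 of 8 tested were higher at a median of 0.20. S100a8 had a log2 fold change of -0.10 ± 0.48 and S100a9 of 0.17 ± 0.49, while Ly6g had at most 13 counts in a library. Genes of marrow granulocyte precursors were low, with a summed level of 0.287 to 3.14 CPM in TNTSham and 0.0225 to 1.79 CPM in TNTProx1. Mpo had at most 59 counts, Elane 21 and Prtn3 23. Erythroid genes summed to 3.68 to 12.7 CPM in TNTSham and 3.16 to 15.5 CPM in TNTProx1, ranges that overlap. Endothelial genes were higher in 4 of 4, beside 47.7% of all genes. At an unadjusted p below 0.05 there were 3 of the 4 (edgeR), beside 8.33% of all genes. Their median was 0.49 (0.59 with 10 libraries and 0.17 with the bone score), with Pecam1 at 0.56 ± 0.17 and Cdh5 at 0.83 ± 0.24. Skeletal muscle genes had a median of -0.34 (-0.96 with 10 libraries) and keratinocyte genes of -0.12 (-0.82 with 10 libraries). Fibroblast genes were also higher in 4 of 4, beside 47.7% of all genes, and 1 of the 4 had an unadjusted p below 0.05 (edgeR), beside 8.33%. Their median was 0.28 (0.32 with 10 libraries and 0.09 with the bone score), with Pdgfra at 0.20 ± 0.13, Dcn at 0.14 ± 0.13 and Lum at 0.36 ± 0.13. The part of cartilage, macrophage, endothelial, fibroblast, muscle and skin content in the difference of the osteoclast genes was not tested beyond these values.

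The wider osteoclast pathway was read from lists of genes by role. That their median lies below that of the 10 genes follows from how the 10 were chosen. Of 42 genes in 6 lists, 38 had a log2 fold change above 0, beside 47.7% of all genes, and the median was 0.22. At an unadjusted p below 0.05 there were 15 higher and 0 lower, beside 8.33% and 3.92% of all genes, and none passed at an adjusted p below 0.05 (edgeR, 0%). The ligand that starts the process was low in abundance: Tnfsf11, which encodes RANKL, had means of 4.75 ± 3.37 CPM (SD) over 7 TNTSham libraries and 8.77 ± 3.85 CPM over 6 TNTProx1 libraries, and a log2 fold change of 0.89 ± 0.43 (SE). Tnfrsf11b, the RANKL decoy osteoprotegerin, had 0.12 ± 0.16. Csf1 had 0.19 ± 0.14, its receptor Csf1r 0.30 ± 0.12 and Il34, the other ligand of that receptor, -0.21 ± 0.14.

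Of 8 signalling genes 7 were higher at a median of 0.34. Src, the kinase needed for the ruffled border, had a log2 fold change of 0.45 ± 0.11, Tyrobp, which encodes DAP12, 0.46 ± 0.17 and Syk 0.35 ± 0.19. Traf6, the adaptor of RANK, had 0.02 ± 0.16. Of 8 transcription factors 7 were higher at a median of 0.25: Fos, a part of AP-1, had 0.78 ± 0.23, Spi1, which encodes PU.1, 0.60 ± 0.17, and Nfatc1 0.29 ± 0.13. Mitf had 0.02 ± 0.13 and Prdm1 -0.11 ± 0.13. The repressors Irf8 and Bcl6 had 0.21 ± 0.15 and -0.14 ± 0.11, one on each side of 0.

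All 11 genes of acid secretion and the ruffled border were higher, beside 47.7% of all genes, at a median of 0.22, and 7 had an unadjusted p below 0.05, beside 8.33%. With 10 libraries 9 were higher and 2 lower, at a median of 0.16. Atp6v0d2, a proton pump subunit enriched in osteoclasts, averaged 22.1 ± 9.69 CPM (SD) in TNTSham and 45.6 ± 9.81 CPM in TNTProx1, with a log2 fold change of 1.04 ± 0.24 (SE). Snx10, a sorting nexin, had 0.75 ± 0.14, Tcirg1, the a3 subunit of the pump, 0.56 ± 0.16, and Slc4a2, a chloride and bicarbonate exchanger, 0.46 ± 0.12. The pump subunits Atp6v1b2 and Atp6v1a had 0.35 ± 0.12 and 0.18 ± 0.12, and the chloride channel Clcn7 had 0.11 ± 0.07. Car2, carbonic anhydrase, had 0.06 ± 0.38 with 13 libraries and -0.87 with 10. All 8 other fusion and adhesion genes were higher at a median of 0.24, led by Calcr, the calcitonin receptor, whose 36 counts at most gave 0.80 ± 0.88. Itgav, the partner of Itgb3, had 0.16 ± 0.14, Sirpa 0.32 ± 0.10 and Adam12 0.54 ± 0.25.

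**Figure D5:**
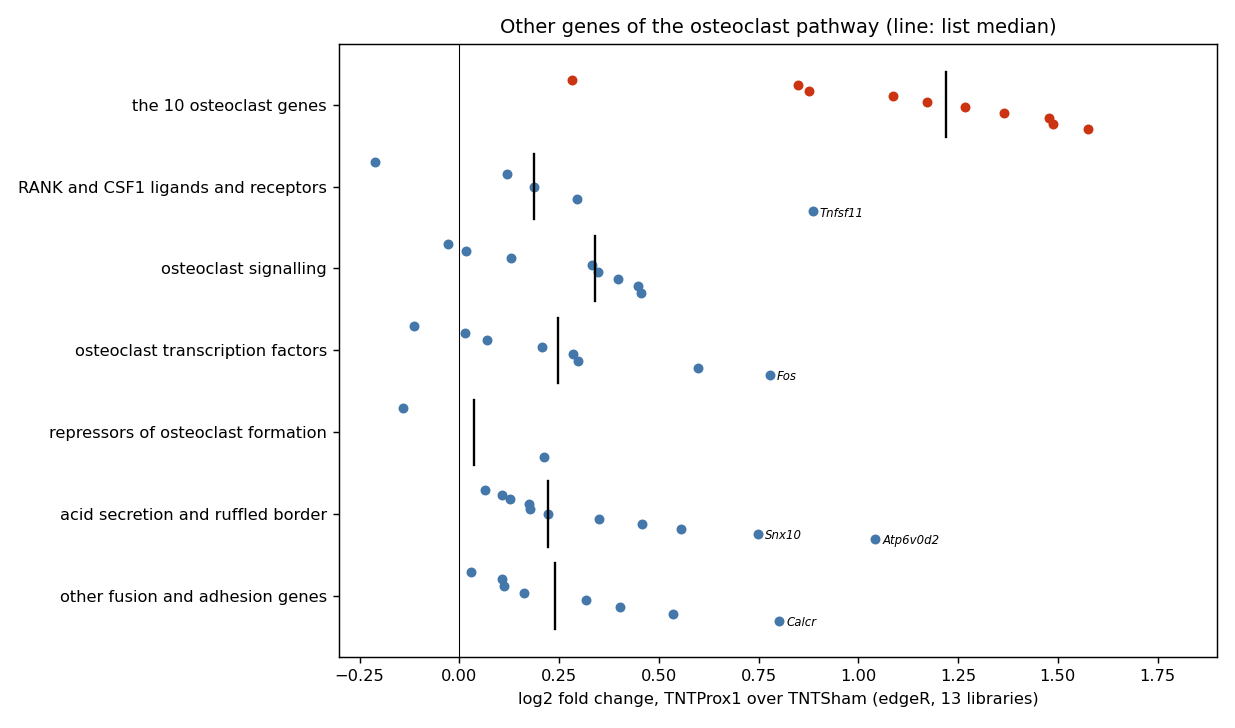
Log2 fold change (TNTProx1 over TNTSham, edgeR, 13 libraries) of the 10 osteoclast genes and of 42 further genes in 6 lists. Each point is a gene, black lines are list medians, and genes above 0.7 outside the first row are named. The median is 1.22 in the first row and 0.04 to 0.34 in the lists.

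Genes most like the osteoclast mean were ranked over 13 libraries after the group means were removed, among 18607 genes of sufficient level. The first 10 were Arsb (r = 0.94), Atp6v0d2 (0.94), Alpl (0.93), Slc9b2 (0.91), Ibsp (0.90), Sgms2 (0.90), Gprc5c (0.88), Olfml2b (0.87), Sfrp4 (0.87) and Spp1 (0.86). These values describe the libraries and have no test. Removing the group means leaves the difference between the separate sets of TNTProx1 libraries in the ranked variation. The part of that difference in the values of r was not tested. Atp6v0d2 and Slc9b2, a sodium and proton exchanger, are known from osteoclasts, while Alpl, the alkaline phosphatase of mineralization, and Ibsp are known from osteoblasts. Spp1, osteopontin, is made by both. Arsb is a lysosomal sulfatase and Sgms2 a sphingomyelin synthase. Sp7 came at rank 30 with r = 0.81. Over the 12 osteoblast and osteocyte genes r ran from -0.42 to 0.93, with Runx2 at 0.65. Over the 11 macrophage genes r ran from -0.35 to 0.68, the highest for Cd68 at rank 136, with Adgre1 at -0.10 and C1qa at -0.07. Csf1r, the CSF1 receptor, had 0.29.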

How the data were processed

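Counts per gene were deposited by the authors as 1 table of raw counts. Tools named in the submitters' processing notes are fastp 0.20.1, HISAT2 2.2.1, featureCounts of Subread 2.0.2, DESeq2 1.34.0 and R 4.1.2, with the build GRCm39. A stranded kit was used on RNA depleted of ribosomal RNA, per the labels' protocols. The strand setting, the annotation and the handling of reads with several positions were not given in the sources used here.

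All 13 columns matched a sample. Symbols, gene classes and exon lengths came from GENCODE M21 (GRCm38), which matched 52081 of 55357 identifiers. Its coordinates were not used. Counts were scaled by TMM and filtered with filterByExpr in edgeR 4.0.16 (R 4.3.3), and TNTProx1 was tested against TNTSham by the quasi-likelihood F test, Benjamini-Hochberg adjusted over 22876 genes at a threshold of 0.05. The common dispersion was 0.131. SE is the absolute log2 fold change divided by the square root of F. Scores used log2(CPM + 0.5). Correlations were tested over all 5040 pairings of the 7 TNTSham libraries. CPM per kb divides CPM by summed exon length, and where several starts exist it does not tell isoforms apart. The edgeR fit and the correlation test were tested on simulated data. Scripts ran under Python 3.11.15 with scipy 1.17.1.

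The members and lists were chosen with earlier results of these data known, including the group difference of several members and the levels of Mmp9 and Sp7 in TNTSham 4 and TNTProx1 3. The rule for naming genes took every member, Sp7, Ibsp, genes of the osteoclast lists, the first 3 genes of each list of other cells, Malat1 and the 10 genes most like the members. For 1 list, a gene that the rule named is left out of the list and not reported here. Replicate numbers were given in accession order and pair nothing. Replicates of a group are separate samples in the labels, which do not say that they are separate animals. P-values therefore measure the spread between these samples, which may be technical. Alternatives were DESeq2 size factors, the Wald test of DESeq2 1.42.0, no low-count filter, each library left out in turn, 10 libraries, bone and macrophage scores as covariates, other bone genes and a pseudocount of 2.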

Additional observations from a re-analysis of the deposited data

Results flagged for a closer look

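The macrophage score of TNTSham 1 was 6.45 on the log2 scale, against 5.89 to 6.08 in the other 6 TNTSham libraries. Its gap to the next library, divided by the range of the group, was 0.661, above Dixon's critical value of 0.568 for 7 samples. It was the 1 case among 30 groups of values checked, where chance flags about 1 group in 20. TNTSham 1 also differed from the other libraries in its sex-linked transcripts. The median log2 fold change of the osteoclast genes was 1.33 without this library and 1.22 with it, and the correlation of their mean with the bone score within TNTSham was 0.93 without it and 0.92 with it.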

How the results depend on the processing

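The log2 fold changes of the 10 osteoclast genes were computed under 210 combinations of gene and alternative. In the 170 without a covariate, each kept its sign and stayed within the spread between replicates of its main value. With a covariate, 16 moved and 2 changed sign: Tnfrsf11a with the bone score (-0.0099) and Ocstamp with the bone score and 10 libraries (-0.34). The median of the 10 genes moved to 0.53 with the bone score, 0.36 with the bone score and 10 libraries, and 0.67 with the wider osteoblast score, an alternative chosen after seeing the data. Leaving out 1 library gave medians of 1.02 to 1.49. The number of genes with an edgeR adjusted p below 0.05 was 0 (2802 at an unadjusted p below 0.05), 1 without the low-count filter and 0 to 589 with 1 library left out, the highest without TNTProx1 1 and 34 without TNTSham 5. The Wald test of DESeq2 called 619. The median of the repressors of osteoclast formation was 0.04, changed sign to -0.067 with the macrophage score and lay between -0.0211 and 0.0735 with 1 library left out, below 0 without TNTProx1 2. The difference in bone score, a description with no test, was 1.20 with 13 libraries, 1.47 with 10 and 0.93 to 1.41 with 1 library left out. The correlation of the osteoclast mean with the bone score within TNTSham was 0.87 to 0.96 with 1 library left out, 0.81 with Sp7 alone, 0.96 with Ibsp alone and 0.75 with the wider osteoblast score. No paired analysis was possible because the labels give no replicate numbers: those used here only name libraries, in accession order. Depth limits Siglec15, Oscar and Calcr most.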
